A study of Mus musculus with 84 samples.

Results

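Among 84 single airway sensory neurons of the mouse vagal ganglia, 15 carried mRNA of the transcription factor Prrxl1 and lacked that of the transcription factor Prdm12. A neuron entered this class when it had 5000000 or more total counts, 5000 or more genes at 10 CPM or more, where CPM are counts scaled to a library sum of 1000000,, Prdm12 below 10 CPM and Prrxl1 at 10 CPM or more. Depth and gene number kept 38 of the 84 neurons, of which 32 had Prdm12 below 10 CPM. The 15 Prrxl1 neurons were compared with the other 17 of these, called Prrxl1-low neurons, and with the 6 kept neurons at 10 CPM or more of Prdm12, called Prdm12 neurons. All were taken from C57BL/6 mice after the lipophilic dye DiI, given at 2%, had been carried back from the airways to the cell bodies. Each was picked singly, its mRNA was amplified, and 76-base reads were taken on a NextSeq 500. The labels name no animal, age, sex or treatment and define 1 group, so the neurons are not replicates of a condition and no p-value is given. Neurons are named by the identifiers in their labels.

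The vagal sensory ganglia join the nodose ganglion, whose neurons arise from epibranchial placodes, and the jugular ganglion, whose neurons arise from the neural crest. Prdm12 is needed for the making of neural crest nociceptors and serves as a mark of jugular neurons. Prrxl1, also called Drg11, is a paired-type homeodomain factor of nociceptor circuits in dorsal root and trigeminal ganglia, which are themselves wholly or largely of neural crest origin. Placodal nodose neurons are known for TrkB, for P2X2 receptors and for Hox genes of the posterior hindbrain. The comparison asked on which side neurons with Prrxl1 but without Prdm12 lay.

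Total counts in the 15 Prrxl1 neurons ran from 10885319 to 20063519, and in the 38 kept neurons from 7667941 to 20668832, so that 10 CPM stood for 76.7 counts in the shallowest. Genes at 10 CPM or more numbered 5826 to 8870 in the Prrxl1 neurons with a median of 8316, and 5231 to 8359 in the Prrxl1-low neurons with a median of 7275. By their numbering the neurons fall into 3 blocks, with gaps of over 30 numbers between them, which the labels do not call batches. Blocks 1, 2 and 3 held 6, 4 and 5 Prrxl1 neurons, 3, 0 and 14 Prrxl1-low neurons, and 2, 0 and 4 Prdm12 neurons. Ddx3y, a gene of the Y chromosome, was detected in 1 of 11 kept neurons of block 1, 0 of 4 of block 2 and 23 of 23 of block 3. Xist, a transcript of the X chromosome, was detected in 6, 2 and 0 of them. Block and these sex-linked genes thus moved together. Some neurons of blocks 1 and 2, such as AM003 and AM065, had neither gene at 10 CPM, and the sex of the mice is not labelled. Ddx3y was detected in 6 of 15 Prrxl1 and 14 of 17 Prrxl1-low neurons, and the part of block or sex in any difference between these classes was not tested.

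Prrxl1 itself lies on chromosome 14 from 32599407 to 32649246 on the forward strand (GRCm38) and overlaps no other annotated gene. In the 15 neurons its level had a lowest value of 11.7 CPM, a median of 64.7 CPM, a highest value of 339 CPM and quartiles of 26.2 and 90.2 CPM. AM019 held 339 CPM and AM017 310 CPM. Both stood inside or above the 162 to 322 CPM of the 6 Prdm12 neurons, and the next neuron, AM065, held 97.8 CPM. At the other end AM239 held 11.7 CPM, AM300 14.4 CPM and AM020 25.1 CPM. The Prrxl1-low neurons had a median of 0.144 CPM, and AM271, at 6.49 CPM, came closest to the threshold. At least 1 Prrxl1 count was seen in 12 of these 17 neurons.

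Prdm12 lies on chromosome 2 from 31640037 to 31655795 on the forward strand and overlaps Gm13425 on the other strand. It had 0 counts in 10 of the 15 Prrxl1 neurons and at most 5 counts in the others, which is 0.259 CPM. The lowest Prdm12 neuron held 22.04 CPM. No neuron among the 38 lay between these values. These levels chose the classes and are given as a description.

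**Figure D1:**
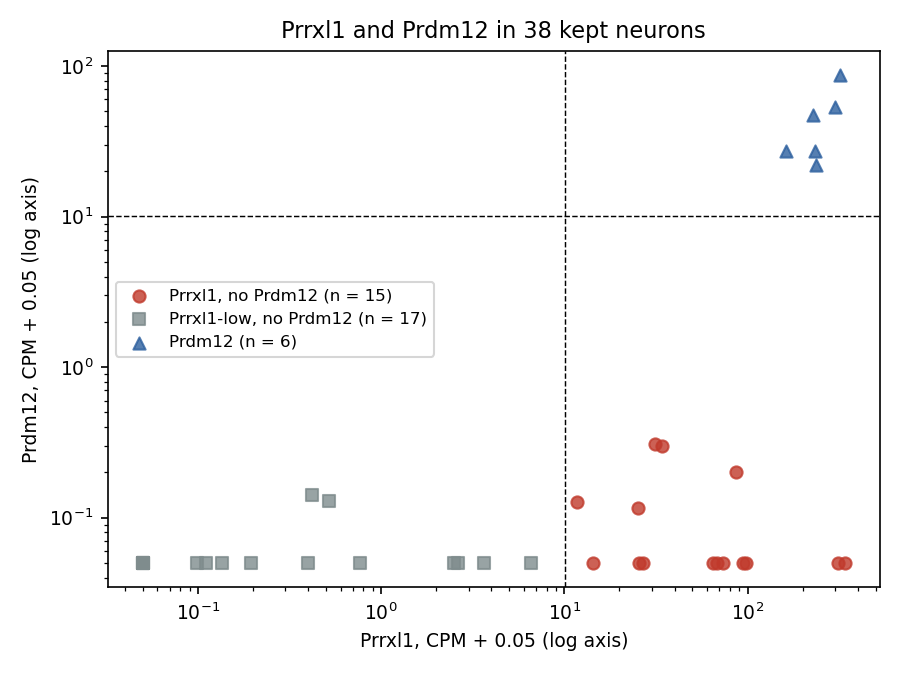
Each point is 1 of the 38 kept neurons, with Prrxl1 on the horizontal and Prdm12 on the vertical axis, both as CPM + 0.05 on log axes. Dashed lines mark 10 CPM. The 15 Prrxl1 neurons lie at the bottom right with at most 0.259 CPM of Prdm12, and AM017 and AM019 reach the Prrxl1 level of the 6 Prdm12 neurons.

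Every one of the 15 Prrxl1 neurons carried Hoxb5 and Ntrk2, markers of the nodose side. Hoxb5, a Hox gene of the posterior hindbrain and vagal axial level, was detected at 10 CPM or more in 15 of 15 Prrxl1 neurons (100%, exact 95% interval 78.2 to 100), 16 of 17 Prrxl1-low neurons and 1 of 6 Prdm12 neurons (16.7%, exact 95% interval 0.421 to 64.1). Its lowest, median and highest levels in the Prrxl1 neurons were 13.3, 224.9 and 473 CPM, against medians of 199 CPM in the Prrxl1-low and 0.784 CPM in the Prdm12 neurons. AM017 held 262 CPM of Hoxb5 and AM019 337 CPM. A single Prrxl1 neuron, AM284 at 13.3 CPM, fell to the level of the highest Prdm12 neuron at 13.6 CPM.

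Ntrk2, the gene of TrkB, the receptor for the neurotrophin BDNF, had lowest, median and highest levels of 58.3, 266 and 720 CPM in the Prrxl1 neurons. All 15 lay above the highest Prdm12 neuron at 24.6 CPM. The Prrxl1-low neurons had 38.7, 277.4 and 601 CPM, over much the same range as the Prrxl1 neurons.

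Hoxb4, the neighbour of Hoxb5 in its cluster, was detected in 15 of 15 Prrxl1, 16 of 17 Prrxl1-low and 2 of 6 Prdm12 neurons. Hoxb6 was detected in 13, 8 and 0. Hoxd1, a gene of another Hox cluster, ran the other way, in 2 of 15, 0 of 17 and 5 of 6. So did Hoxa2, in 0 of 15, 2 of 17 and 3 of 6, and Hoxd8, in 0 of 15, 0 of 17 and 4 of 6, which was named after its values were seen.

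P2rx2, a subunit of ATP-gated channels, was detected in 12 of 15 Prrxl1 neurons (exact 95% interval 51.9 to 95.7), 14 of 17 Prrxl1-low neurons and 0 of 6 Prdm12 neurons, which allows a share of up to 50% of Prdm12 neurons. Its median was 36.7 CPM in Prrxl1 and 106 CPM in Prrxl1-low neurons, and the highest Prdm12 neuron held 1.64 CPM. AM007, AM069 and AM284 were the Prrxl1 neurons below 10 CPM, at 8.17, 2.19 and 0.643 CPM. Its partner subunit P2rx3 gave no contrast, with 8 of 15, 10 of 17 and 3 of 6 neurons and medians from 10.4 to 11.3 CPM. P2rx3 overlaps Ssrp1 on the other strand, and the strand setting of the counting is not given.

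Other nodose markers detected in no Prdm12 neuron were Eya1, a placode factor, in 13 Prrxl1 and 10 Prrxl1-low neurons, Gfra2, the receptor for neurturin, in 12 and 12, and Cckar, the receptor for cholecystokinin, in 11 and 7. P2ry1, a receptor for ADP, was detected in 13, 12 and 2 neurons of the Prrxl1, Prrxl1-low and Prdm12 classes. Npy2r, in 8, 9 and 3, and Htr3a, in 2, 9 and 4, did not follow the split. Phox2a was detected in 0 Prrxl1 and 2 Prrxl1-low neurons and Kcng1 in 1 Prrxl1 and 3 Prdm12 neurons. Of the 12 nodose markers the median Prrxl1 neuron carried 7, the median Prrxl1-low neuron 7 and the median Prdm12 neuron 3.

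The jugular list separated the classes far less, and several of its genes were common to all. Besides the 2 genes of the rule, Tlx3, a factor of relay and nociceptive sensory neurons, was detected in 14 of 15 Prrxl1, 12 of 17 Prrxl1-low and 6 of 6 Prdm12 neurons. Pou4f1 and Isl2, general sensory neuron factors, were each detected in all 15 Prrxl1 and all 6 Prdm12 neurons, and in 12 and 13 Prrxl1-low neurons. Runx1, a factor of nonpeptidergic nociceptors, was detected in 15, 16 and 4, with medians of 117, 63.5 and 20.9 CPM, so it was higher outside the Prdm12 class. Scn10a, the sodium channel of nociceptors, was detected in 15, 12 and 6, with medians of 193, 39.9 and 295.3 CPM.

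The CGRP genes of the list were scarce in the Prrxl1 neurons. Calca, the gene of the peptide CGRP, was detected in 4 of 15 Prrxl1, 4 of 17 Prrxl1-low and 4 of 6 Prdm12 neurons, with medians of 2.66, 0.782 and 3916 CPM. Calcb, the gene of a second form of CGRP, was detected in 2, 2 and 4. Tac1, the gene of substance P, was more widely carried, with 12, 9 and 3 neurons and a median of 295.5 CPM in the Prrxl1 neurons against 10.01 CPM in the Prrxl1-low and 88.2 CPM in the Prdm12 neurons. Mrgprd was detected in none of the 38, which allows a share of up to 20% of the Prrxl1 neurons. Of the 10 jugular markers left, the median Prrxl1 neuron carried 6, the Prrxl1-low neuron 5 and the Prdm12 neuron 7.5.

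**Figure D2:**
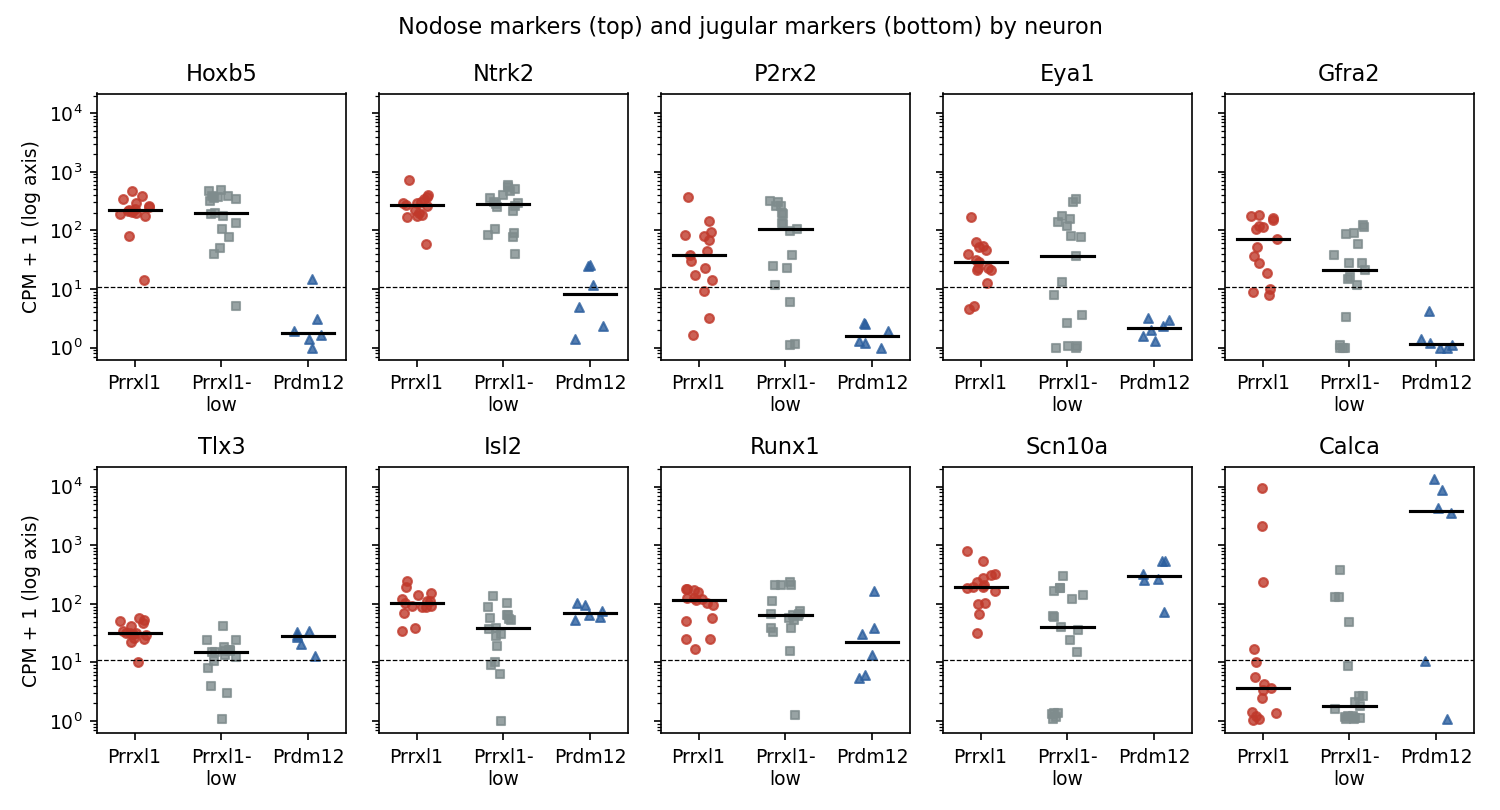
Level of 5 nodose markers (top) and 5 jugular markers (bottom) in each neuron, as CPM + 1 on a log axis, with 1 point per neuron, a bar at the class median and a dashed line at 10 CPM. The Prrxl1 and Prrxl1-low neurons both lie high for Hoxb5 and Ntrk2, where the Prdm12 neurons have medians of 0.784 and 7.17 CPM, and Tlx3 and Isl2 are detected in all 3 classes.

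Several genes that all 6 Prdm12 neurons carried were rare in the Prrxl1 neurons. Of these, Htr1b, Pou4f3, Trappc3l and Syt6 were picked for a wide difference between the Prdm12 neurons and the 32 neurons without Prdm12. Those 32 include the 15 Prrxl1 neurons, so the rarity of these genes there is partly set by the choice. Asic3, an acid-sensing channel, was detected in 6 of 6 Prdm12 neurons at 78.9 to 396 CPM, and in 1 of 15 Prrxl1 neurons and 5 of 17 Prrxl1-low neurons. Htr1b, a serotonin receptor, was detected in 6 of 6 Prdm12 neurons with a median of 60.6 CPM and in 0 of 15 Prrxl1 neurons, which allows a share of up to 20%. Pou4f3, a factor of the same family as Pou4f1, was detected in 6 of 6 Prdm12, 3 of 15 Prrxl1 and 0 of 17 Prrxl1-low neurons. Trappc3l and Syt6, a synaptotagmin, were each detected in 6, 1 and 0. Piezo2, the mechanically gated channel, was not rare in the Prrxl1 neurons. It was detected in 6 of 6 Prdm12, 8 of 15 Prrxl1 and 6 of 17 Prrxl1-low neurons. Its median was 444 CPM in the Prdm12, 11.6 CPM in the Prrxl1 and 0.641 CPM in the Prrxl1-low neurons.

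The same contrast was drawn over all genes, by the share of neurons at 10 CPM or more. Of 14679 genes tested, 103 (0.702%) were detected in the Prdm12 neurons by 60 points or more above the 32 neurons without Prdm12, and 56 (0.381%) by 60 points or more below them. They are called Prdm12-side and other-side genes. Both sets were chosen from these same neurons, the 15 Prrxl1 neurons included, so the gap between the classes is partly set by the choice. The median Prrxl1 neuron carried 21 of the 103 Prdm12-side genes (20.4%, lowest 7, highest 36) and 49 of the 56 other-side genes (87.5%, lowest 38, highest 54). The Prrxl1-low neurons carried a median of 14 and 43, and the Prdm12 neurons a median of 95 and 4. With the genes chosen and counted within block 1 the medians in the Prrxl1 neurons were 23.7% and 84.4%, and within block 3 they were 29.8% and 89.8%. In the Prrxl1-low neurons they were 19.3% and 71.2% within block 1 and 16.7% and 76.5% within block 3. These choices again included the Prrxl1 neurons and rested on 2 and 4 Prdm12 neurons. No Prrxl1 neuron reached the 81 Prdm12-side genes of the lowest Prdm12 neuron or fell to the 10 other-side genes of the highest.

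By these genes AM017 and AM019, with as much Prrxl1 as the Prdm12 neurons, lay within the range of the other Prrxl1 neurons. Both were among the neurons that the genes were chosen from. AM019 carried 15 Prdm12-side and 51 other-side genes, and AM017 carried 35 and 47. The Prrxl1 neurons with most Prdm12-side genes were AM069 with 36, AM017, and AM007 and AM059 with 34 each. AM284 and AM020 had 7 each. Other-side genes included Efna5, an ephrin of axon guidance, in 15 of 15 Prrxl1, 17 of 17 Prrxl1-low and 1 of 6 Prdm12 neurons. Klf5, a zinc-finger factor, was detected in 14, 12 and 0, with a median of 104 CPM in the Prrxl1 neurons against 17.7 CPM in the Prrxl1-low neurons.

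**Figure D3:**
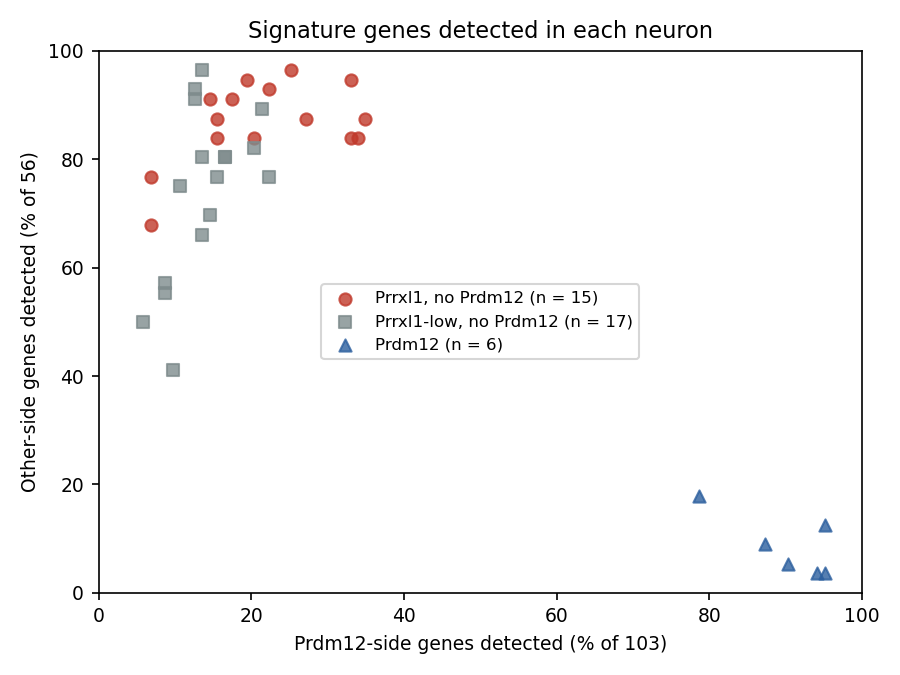
Each point is 1 neuron, placed by the percentage of the 103 Prdm12-side genes (horizontal) and of the 56 other-side genes (vertical) it carried at 10 CPM or more. The Prrxl1 neurons lie at 6.80 to 34.95% and 67.9 to 96.4%, overlapping the Prrxl1-low neurons and apart from the 6 Prdm12 neurons at 78.6 to 95.1% and 3.57 to 17.9%. The genes were chosen from these neurons.

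When the genes were chosen from the Prdm12 and Prrxl1-low neurons alone, so that no Prrxl1 neuron entered the choice, the 2 sides no longer gave the same picture. On the other side, the Prrxl1 neurons carried a median of 78.05% of 41 genes (63.4 to 85.4%), close to the 82.9% of the Prrxl1-low and far from the 6.10% of the Prdm12 neurons. On the Prdm12 side, they carried a median of 48.2% of 222 genes (15.3 to 61.7%), between the 18.9% of the Prrxl1-low and the 91.4% of the Prdm12 neurons. No Prrxl1 neuron overlapped the Prdm12 neurons, the lowest of which carried 79.7%. AM017 was the highest Prrxl1 neuron with 137 of the 222 genes, and AM019 carried 107. With the 5000 highest genes of each neuron called detected, which gives every neuron the same number, these medians were 35.7% of 112 Prdm12-side genes and 65.2% of 66 other-side genes in the Prrxl1 neurons, against 15.2% and 78.8% in the Prrxl1-low neurons. The low and high levels of the Prrxl1-low and Prdm12 neurons are fixed by the choice, and those of the Prrxl1 neurons are not.

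Correlation over the 1000 most variable genes put 14 of the 15 Prrxl1 neurons nearer the mean Prrxl1-low neuron than the mean Prdm12 neuron. It was taken on log2(CPM + 10) without Prrxl1 and Prdm12, and the neuron itself was left out of its class mean. These means rest on 17 Prrxl1-low and 6 Prdm12 neurons, and the part of this unequal number in r was not tested. The Prrxl1 neurons had a median Pearson r of 0.652 with the Prrxl1-low mean and 0.506 with the Prdm12 mean, over genes measured in the same libraries. They had a median r of 0.770 with the mean of the other Prrxl1 neurons. Yet AM020, AM239, AM257 and AM284 had a higher r with the Prrxl1-low mean than with that mean. The gap was widest in AM257 (0.686 against 0.483) and slight in AM284 (0.6248 against 0.6242). AM017 was the neuron nearer the Prdm12 than the Prrxl1-low mean, with 0.631 and 0.608, but it had 0.823 with the other Prrxl1 neurons. Between the Prrxl1-low and the Prdm12 mean, all 17 Prrxl1-low neurons lay nearer their own and all 6 Prdm12 neurons nearer theirs. Against the Prrxl1 mean this did not hold throughout. AM003, AM221, AM234, AM271 and AM273 of the Prrxl1-low neurons had a higher r with the Prrxl1 mean than with their own, and the rest did not. The count of Prrxl1 neurons nearer the Prdm12 mean was 2 with all genes in the correlation, and it depended on the neurons kept. It was 7 of 10 without block 3, where 3 Prrxl1-low and 2 Prdm12 neurons remained, 4 of 6 within block 1 and 0 of 5 within block 3, and it was 5 of 14 when only neurons with 7000 or more genes were kept.

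Between the Prrxl1 and the Prrxl1-low neurons, differences of 40 points or more in the share of neurons ran nearly all one way. Of 14430 genes tested, 514 (3.56%) were more often detected in the Prrxl1 neurons and 16 (0.111%) less often, and the median difference over all genes was 5.88 points. The classes were cut on Prrxl1, so these genes are described and not tested. The Prrxl1 neurons also had more genes detected, and with the 5000 highest genes of each neuron called detected the split was 157 higher and 82 lower. With library totals scaled by trimmed means (TMM) it was 334 and 34. Within block 1, with 6 Prrxl1 and 3 Prrxl1-low neurons, it was 1116 and 502, and within block 3, with 5 and 14, it was 556 and 73. A difference of 40 points both at 10 CPM and among the 5000 highest genes was kept by 34 of the 514 genes and 4 of the 16. Every kept neuron had over 5000 genes at 10 CPM, so the second rule also asks for a level above 10 CPM. Genes near that threshold can fail it by level alone. The part of gene number and of block in these counts was not tested. Against the Prdm12 neurons the differences ran both ways, with 437 of 13317 genes (3.28%) higher and 370 (2.78%) lower in the Prrxl1 neurons.

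**Figure D4:**
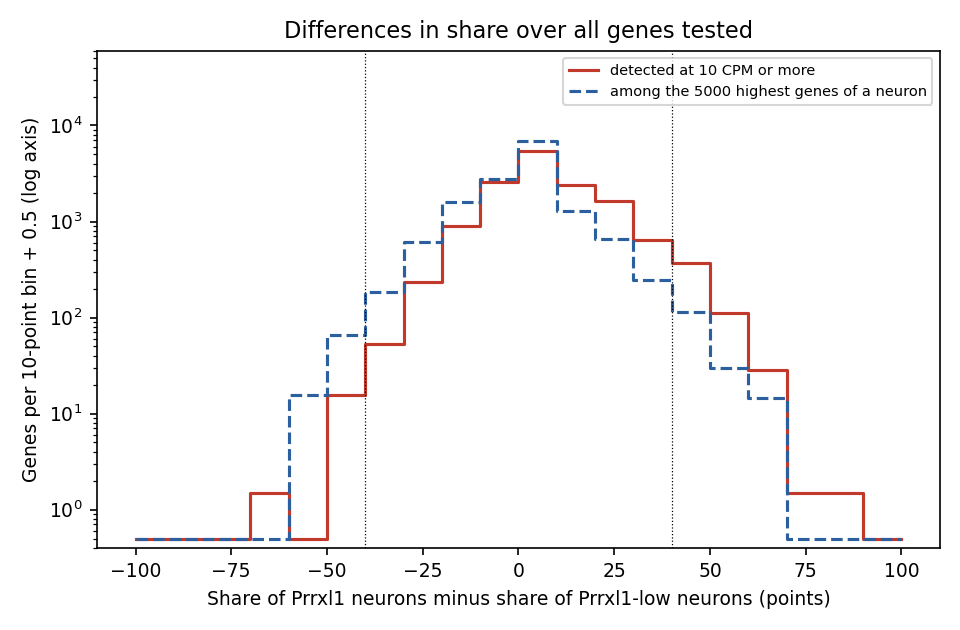
Number of genes (plus 0.5, log axis) by the share of Prrxl1 neurons minus the share of Prrxl1-low neurons, in bins of 10 points. The solid line calls a gene detected at 10 CPM and leans to the right, with 514 genes at 40 points or more and 16 at -40 or less (dotted lines). The dashed line calls the 5000 highest genes of each neuron detected and leans less, with 157 and 82.

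Most of the widest differences were genes near the threshold itself. Gm43655, detected in 15 Prrxl1 and 3 Prrxl1-low neurons, had medians of 18.3 and 7.49 CPM and did not differ among the 5000 highest genes. St6galnac6, a sialyltransferase, was detected in 12 and 2 neurons, and Gpsm1, a G-protein signalling modulator, in 11 and 1. Vwa7 was detected in 11 and 1 neurons, and Insyn1, a protein of inhibitory synapses, in 11 and 1, and both were detected in all 6 Prdm12 neurons. Ankrd13b and Trim11 were detected in 10 and 0. On the lower side stood Hypk in 4 and 15 neurons, the ribosomal protein gene Rpl5 in 4 and 13, the synaptotagmin Syt5 in 3 and 11, and Stmn4, a regulator of microtubules, in 7 and 15.

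Kcnt1, the sodium-activated potassium channel, was among 5 genes that differed by 40 points or more at 10 CPM, among the 5000 highest genes, and within blocks 1 and 3 each. These 5 were chosen after their values were seen. Kcnt1 was detected in 14 of 15 Prrxl1 neurons (93.3%, exact 95% interval 68.1 to 99.8) and 5 of 17 Prrxl1-low neurons, with medians of 75.6 and 1.04 CPM. AM257, at 4.55 CPM, was the Prrxl1 neuron below the threshold, and AM065, at 313 CPM, the highest. Within block 1 Kcnt1 was detected in 6 of 6 Prrxl1 and 1 of 3 Prrxl1-low neurons, and within block 3 in 4 of 5 and 4 of 14. It was also detected in 6 of 6 Prdm12 neurons, at a median of 39.5 CPM.

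The other genes of these 5 were C030015E24Rik, a transcript of unsettled status inside Kcnip4 on the same strand, in 14 Prrxl1 and 5 Prrxl1-low neurons, Fastkd3 in 13 and 7, Zbtb10 in 14 and 9, and on the lower side Gm21738 in 7 and 15. Reads counted for C030015E24Rik may come from Kcnip4 transcripts, which was not tested.

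The gene lists, 431 genes of 30 lists without Prrxl1 and Prdm12, differed between Prrxl1 and Prrxl1-low neurons about as often as all genes. Of 322 list genes tested, 10 were higher by 40 points or more and 0 lower, against 514 (3.56%) and 16 (0.111%) of all 14430 genes. Neither ganglion list held one, but with 9 jugular and 12 nodose genes tested this absence is not a result about them. Plxnc1, the receptor for semaphorin 7A, was detected in 14 of 15 and 8 of 17 neurons with medians of 65.3 and 9.91 CPM. Gfra1, the receptor for GDNF, was detected in 14 and 8 with medians of 52.7 and 9.52 CPM. Both kept a difference of over 40 points among the 5000 highest genes. Slit1, a ligand of axon guidance, was detected in 12 and 5, and Plxnd1, a semaphorin receptor, in 9 and 1. Kcnn1, a calcium-activated potassium channel, was detected in 11 and 4, and Trpm4, a calcium-activated cation channel, in 9 and 3. F2r, a thrombin receptor, was detected in 15 and 10, though its medians were 52.8 CPM in both classes. Ifnar1, an interferon receptor, was detected in 10 and 4. Hba-a2, a haemoglobin gene, was detected in 9 and 1 at levels no higher than 25.7 CPM.

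Some genes fell just short of 40 points. Htr3a, the gene of the ionotropic serotonin receptor, was detected in 2 of 15 Prrxl1 and 9 of 17 Prrxl1-low neurons, a difference of -39.6 points, and 4 of 6 Prdm12 neurons had it. Its 2 Prrxl1 neurons were AM020 and AM257. Hoxb6 was the mirror of this, in 13 and 8, a difference of 39.6 points.

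The 15 Prrxl1 neurons were not alike in the channels of irritant and mechanical sensing. Trpv1, the capsaicin and heat channel, and Trpa1, the irritant channel, were detected in the same 5 neurons, AM020, AM021, AM070, AM257 and AM284. Trpv1 ran from 15.02 CPM in AM020 to 923 CPM in AM021, and at most 1.58 CPM was seen in the other 10. Trpa1 ran from 34.4 CPM in AM070 to 2415 CPM in AM021. Piezo2 was detected in 8 neurons, from 11.6 CPM in AM020 to 600 CPM in AM059, and only AM020 and AM070 had both Trpv1 and Piezo2. AM019, AM022, AM065 and AM267 had neither.

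Calca was detected in AM020, AM021, AM059 and AM284, and 2 of these held most of it, AM021 with 9512 CPM and AM284 with 2143 CPM. Tac1 exceeded 1000 CPM in 5 neurons, AM017, AM059, AM069, AM070 and AM267. P2ry1 and Gfra2 were detected together in 11 of the 15. AM021 and AM284, which held most Calca, were the Prrxl1 neurons without P2ry1, at 4.21 and 2.48 CPM, and AM284 also had the lowest Hoxb5 and Ntrk2. Its gene number, 5826 at 10 CPM or more, was the lowest of the 15, and the part of this in its levels was not tested. These neuron-by-neuron groupings were read from the values and are a description.

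**Figure D5:**
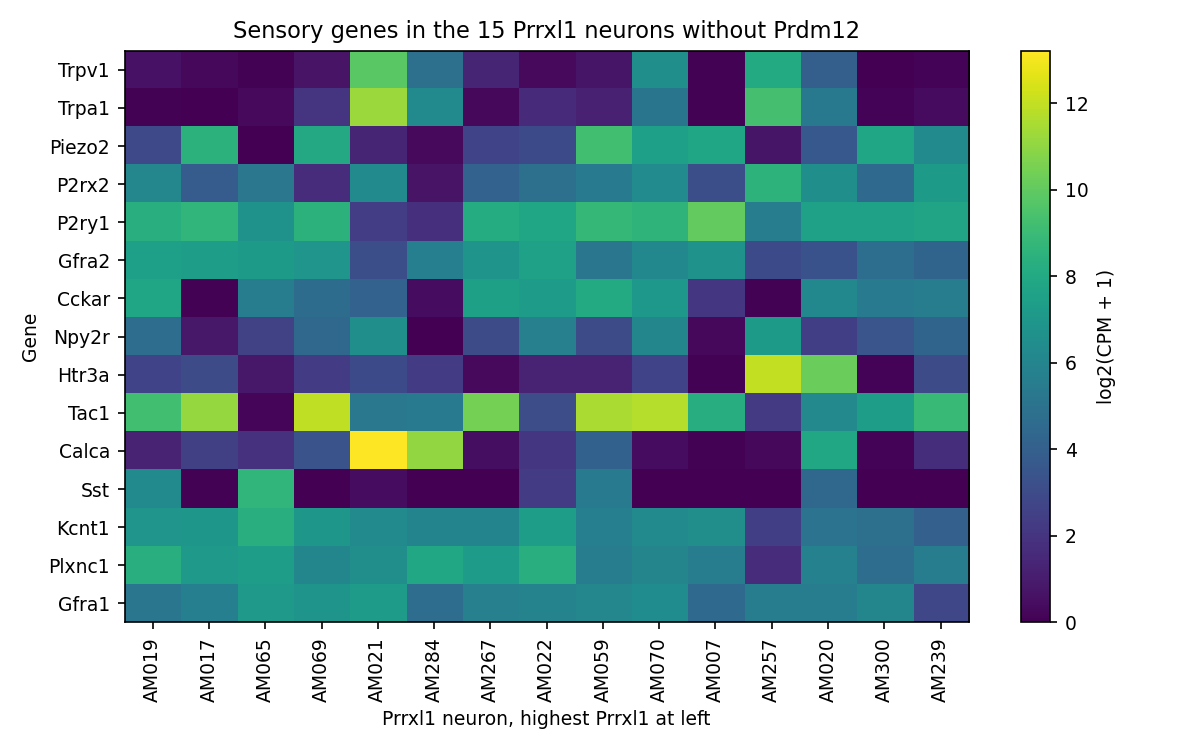
Level of 15 sensory genes (rows) in the 15 Prrxl1 neurons (columns, highest Prrxl1 at left), as log2(CPM + 1) by colour. Trpv1 and Trpa1 reach 10 CPM in the same 5 columns, and Piezo2 in 8, 2 of them shared with Trpv1. Levels near 10 CPM, such as Trpv1 (15.02 CPM) and Piezo2 (11.6 CPM) in AM020, lie low on the colour scale. No order along the Prrxl1 level was drawn or tested.

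Genes whose level followed that of Prrxl1 most closely were sought over the 32 neurons without Prdm12, among 9806 genes detected in at least 20% of them. The highest Spearman coefficients on log2(CPM + 10) were 0.78 for Rasa4, a Ras GTPase-activating protein, 0.77 for Dgkz, a diacylglycerol kinase, and 0.75 for Serpina3n, Fam189b and Trdmt1. Fstl1, Rassf5 and Gnal, the olfactory-type G-protein alpha subunit, had 0.74. The median over all 9806 genes was 0.14. Prrxl1 also had a coefficient of 0.55 with the number of genes detected, which these neurons share with every gene compared. Rasa4 had medians of 136 CPM in the Prrxl1 and 6.41 CPM in the Prrxl1-low neurons, and Fstl1, detected in all 32, medians of 8810 and 4098 CPM.

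All classes were neuronal by their markers, and RNA of glial genes was present in all 3. The 10 pan-neuronal genes summed to 9059 to 16884 CPM in the Prrxl1 neurons and 6454 to 19767 CPM in the Prrxl1-low neurons. The 10 satellite glia genes, S100b among them, which sensory neurons may also express, summed to 364, 1061 and 10978 CPM (lowest, median, highest) in the Prrxl1 neurons and 23.9, 1448 and 5838 CPM in the Prrxl1-low neurons, and 0 of the 9 tested differed by 40 points. The 8 Schwann cell genes summed to medians of 835 and 520 CPM. The 8 leukocyte genes summed to at most 44.5 CPM, and the 6 endothelial genes to at most 82.97 CPM, in any Prrxl1 neuron. The 5 erythrocyte genes summed to medians of 19.9 CPM in the Prrxl1 and 2.66 CPM in the Prrxl1-low neurons. Of these, 2 were tested and 1, Hba-a2, was higher by 40 points or more. The 6 fibroblast genes summed to medians of 24.2 and 87.3 CPM, and the 6 sympathetic neuron genes to 71.6 and 127 CPM, with highest sums of 1349 and 334 CPM. The part of this RNA in the differences between classes was not tested.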

How the data were processed

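The deposited table holds raw read counts per gene, whole numbers for 50686 Ensembl mouse identifiers in 84 neurons, and 50376 identifiers matched a symbol in the GENCODE annotation of GRCm38. Reads were assigned to genes with featureCounts, per the submitters' processing notes. The sources used here do not give the aligner, the genome build, the annotation or the strand setting, so overlapping and antisense genes may share reads. Reads carry no stated molecular identifiers, so copies made by amplification are counted again.

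From these counts, CPM (counts scaled to 1000000 per neuron) were computed here, and 10 CPM was the limit of detection. Classes were compared by shares of neurons with exact (Clopper-Pearson) 95% intervals, medians and ranges. A share of 0 is given with the limit that 3 counts would set. Both describe counting error alone. Genes were called different by a fixed size, 40 points for naming and 60 points for Prdm12-side and other-side genes. No test was run, since no label names an animal. No 2 neurons had identical counts.

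The neurons just inside and just outside the limit on gene number had 5231 and 4870 genes at 10 CPM, and those just inside and just outside the limit on depth, before the limit on genes, had 6732279 and 3892206 total counts. The members, the gene lists and the comparison were chosen with earlier results of these data known. Named were all ganglion markers, the list members with the highest shares or with differences of 40 points or more, short lists as a whole, the 12 widest differences each way outside the lists, the 10 widest of each side of the Prdm12 contrast and the 8 genes most like Prrxl1. Some genes this rule picked are not reported here. Alternatives covered the detection threshold, the class limits, gene number, thinning to equal depth, TMM scaling (edgeR 4.0.16 in R 4.3.3, no edgeR test) and the identifier blocks. Steps were tested on simulated data. Analyses used Python 3.11.15, numpy 2.4.6, pandas 2.3.3, scipy 1.17.1 and matplotlib 3.10.9, with seed 1.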

Additional observations from a re-analysis of the deposited data

Results flagged for a closer look

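Prrxl1 reached 10 CPM in 13 of the 46 neurons left out by depth or gene number, which is a signal outside the comparison. Of these, 5 had too few counts, 7 had enough counts but too few genes and Prdm12 below 10 CPM, and AM304 had too few genes and carried Prdm12. The 7 neurons with too few genes held 16.6 to 645 CPM of Prrxl1, with a median of 298.2 CPM, and 1428 to 4165 genes at 10 CPM. Of these 7, 5 carried Hoxb5, 5 carried Ntrk2 and 3 carried P2rx2 at 10 CPM or more. They carried 0 to 21 of the 103 Prdm12-side genes and 2 to 23 of the 56 other-side genes.

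AM252 stood apart from the rest of the 7, and this was noticed after its values were seen. It had 148.9 CPM of Prrxl1 and 0 Prdm12 counts in 14784084 total counts, but also 0.135 CPM of Hoxb5, 0.406 CPM of Ntrk2 and 0.203 CPM of P2rx2. It carried 21 Prdm12-side genes and 2 other-side genes, with 115 CPM of Trappc3l, 14.4 CPM of Asic3 and 11.7 CPM of Pou4f3. With 3020 genes at 10 CPM it lay below the limit of 5000, and it is not among the 15 neurons described above. AM304, the left-out Prdm12 neuron, carried 47 and 3 of the same genes, with 517 CPM of Prrxl1 and 57.8 CPM of Prdm12.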

How the results depend on the processing

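No paired analysis was possible because the labels define 1 group. Settings chosen after seeing the data were the 5000 highest genes per neuron, leaving out AM017 and AM019, each block alone and the choice of Prdm12-side and other-side genes without Prrxl1 neurons, also together with the 5000 highest genes. Over all settings 66 values of the main results moved and are given here, and of the values of single markers 1135 stayed close to those reported and 161 moved. Several comparisons turned direction. The share of other-side genes was higher in Prrxl1 than in Prrxl1-low neurons (87.5% against 76.8%) but lower with no limit on genes (66.7% against 83.3%, over 6 genes), with genes chosen without Prrxl1 neurons (78.05% against 82.9%) and with the 5000 highest genes as well (65.2% against 78.8%). Most Prrxl1 neurons lay nearer the Prdm12 mean without block 3 (7 of 10) and within block 1 (4 of 6). The number of Prrxl1 neurons was 9 without block 1, 6 within block 1 and 5 within block 3. Prrxl1-low neurons numbered 43 with no limit on genes, 10 with 7000 or more genes and 3 within block 1 or without block 3, and Prdm12 neurons 2 in both of the latter. Genes higher in Prrxl1 than in Prrxl1-low neurons made up 2.27% of those tested at 1 count, 2.31% with TMM totals, 9.84% without block 3, 8.01% and 0.984% at 30 and 50 points, 1.40% with the 5000 highest genes and 9.19% within block 1. Genes lower made up 0.352% at 50 CPM, 0.0688% at 1 count, 0.0485% and 0.222% with Prrxl1 cut at 5 and 20 CPM, 0.193% with 20 against 2 CPM, 0.552% with Prdm12 at 0 counts, 0.00631% with no limit on genes, 0.901% with 7000 or more genes, 0.235% with TMM totals, 0.227% without block 1, 3.91% without block 3, 0.471% and 0.00693% at 30 and 50 points, 0.731% with the 5000 highest genes, 4.14% within block 1 and 0.548% within block 3. The median share of Prdm12-side genes in Prrxl1 neurons was 49.3% with no limit on genes, 29.8% within block 3, 48.2% with genes chosen without them and 35.7% with the 5000 highest genes as well. In Prrxl1-low neurons it was 23.1% without block 3, 19.3% within block 1 and 18.9% with genes chosen without Prrxl1 neurons. The share of other-side genes in Prrxl1 neurons was 66.7% with no limit on genes, 78.05% with genes chosen without them and 65.2% with the 5000 highest genes as well, and in Prrxl1-low neurons 59.8% without block 3. Prrxl1 neurons nearer the Prdm12 mean numbered 0 with Prrxl1 cut at 20 CPM, without AM017 and AM019 and within block 3, 3 with 20 against 2 CPM, 9 with no limit on genes, 5 with 7000 or more genes, 7 without block 3, 4 within block 1, and 2 with a pseudocount of 1 or with all genes. The median number of jugular markers in Prrxl1 neurons was 4 at 50 CPM, 8 at 1 count and 5 with the 5000 highest genes, and in Prrxl1-low neurons 3 and 8 at 50 CPM and 1 count. The median number of nodose markers in Prrxl1 neurons was 9 at 5 CPM, 5 at 50 CPM and 10 at 1 count, in Prrxl1-low neurons 5 at 50 CPM, 10 at 1 count and 9 without block 3 or within block 1, and in Prdm12 neurons 10.5 at 1 count. The cause was not tested.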
